A study of Mus musculus with 6 samples.

Results

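The 10 genes described here encode CC chemokine ligands. They were chosen by name, as inflammatory and homeostatic members of the family, out of the 27202 genes listed for each library. All 10 (Ccl2, Ccl3, Ccl4, Ccl5, Ccl7, Ccl8, Ccl11, Ccl20, Ccl25 and Ccl28) were listed, and all 10 passed the filter for testing, a mean normalized count of at least 10 over the 6 libraries, as did 16246 genes in all. Ccl3 and Ccl4 passed it only through one genotype, since their means in the control libraries lay below 10.

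Whole colon RNA was sequenced in 3 libraries of Nedd4l fl/fl Villin Cre mice, named cKO in the labels, and in 3 of Nedd4l fl/fl littermates, named WT. Both genotypes carried the floxed alleles, were 8 to 10 weeks old, drank 2% dextran sulfate sodium (DSS), a polymer that injures the colonic epithelium, and were sampled on day 7, so every value comes from DSS-treated colon. Nedd4l encodes an E3 ubiquitin ligase, and the Villin promoter directs Cre to the intestinal epithelium, while the chemokines of whole tissue also come from leukocytes, fibroblasts and vessels. The comparison asks whether the transcripts of these ligands differ in DSS colitis when epithelial cells lack Nedd4l.

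CC chemokines are small secreted proteins that guide leukocytes through G protein-coupled receptors, and the family is named for a pair of adjacent cysteines near the start of the mature protein. Inflammatory members such as Ccl2 are induced by cytokines and draw monocytes, eosinophils or T cells into injured tissue. Homeostatic members such as Ccl25 and Ccl28 are made by resting mucosal epithelium and place lymphocytes and plasma cells in the gut wall, and Ccl20, made by epithelium near lymphoid follicles, can be both.

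The cysteine pair is shown for the 4 ligands whose genotypes did not overlap in the results and for Ccl28, the most abundant of the 10 per length. Each line gives 30 coding bases from the GENCODE M21 transcript, 5′ to 3′, with the codons of the adjacent cysteines in capitals.
Ccl2: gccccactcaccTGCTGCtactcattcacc
Ccl7: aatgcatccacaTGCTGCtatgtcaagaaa
Ccl11: atcccaacttccTGCTGCtttatcatgacc
Ccl20: agcaactacgacTGTTGCctctcgtacata
Ccl28: atggcctccagcTGTTGCactgaggtgtct
The pair fell on codons 34 and 35 in Ccl2, 33 and 34 in Ccl7, 32 and 33 in Ccl11 and Ccl20, and 30 and 31 in Ccl28, and each of the 10 coding sequences held 1 such pair. The 3 genes of the Ccl2 neighbourhood used TGC for both cysteines, whereas Ccl20 and Ccl28 used TGT and then TGC. The longest exact run that any of the 10 shared with another CC ligand transcript was 23 bases, between Ccl2 and Ccl7.

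RefSeq promoter entries on GRCm38.p6 were matched for 5 of the 10 ligands. Those of 3 are shown, as the 150 bases that end just before the transcription start, in the direction of the gene: the ligand whose cKO libraries all lay lower (Ccl20), the second most abundant ligand per length (Ccl8) and the most abundant (Ccl28). Capitals mark matches, on either strand, to TATAA, the core of a TATA box, or to the NF-kappaB consensus.
Ccl20, chr1:83116616-83116765, plus strand: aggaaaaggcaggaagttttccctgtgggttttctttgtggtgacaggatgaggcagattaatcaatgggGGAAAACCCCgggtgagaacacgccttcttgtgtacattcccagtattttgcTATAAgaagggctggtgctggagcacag
Ccl8, chr11:82115035-82115184, plus strand: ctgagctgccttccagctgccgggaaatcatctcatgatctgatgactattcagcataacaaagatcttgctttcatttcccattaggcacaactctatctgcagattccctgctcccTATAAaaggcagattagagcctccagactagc
Ccl28, chr13:119623669-119623818, plus strand: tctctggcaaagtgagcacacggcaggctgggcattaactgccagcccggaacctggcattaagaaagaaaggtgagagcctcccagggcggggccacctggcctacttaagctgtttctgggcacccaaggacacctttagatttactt
The Ccl20 promoter held an NF-kappaB match beginning 80 bases before the start and a TATAA match beginning 28 bases before it. The Ccl8 promoter held a TATAA match 32 bases before the start. None of these letters, nor the AP-1 motif TGANTCA, occurred in the 250 bases searched before the start of Ccl28. Over all 32851 promoters of the same table, 22.8% held TATAA, 3.90% the NF-kappaB consensus and 6.75% TGANTCA in that window. These are matches of letters only.

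Values are normalized counts, that is, the reads of a gene after division by a size factor that each library has. Differences are cKO minus WT on the log2(value + 1) scale with standard errors (SE) from limma, and adjusted p-values are Benjamini-Hochberg values over the 16246 genes tested. Depth was similar, from 14914367 to 17547270 in units of each library's smallest value. Nedd4l itself was at 476, 942 and 566 in cKO 1, 2 and 3 and at 1241, 1271 and 1266 in WT, a log2 difference of -0.99 (adjusted p = 0.225). Library cKO 2 had the highest Nedd4l of its genotype, and its log2 values correlated better with the WT libraries (mean r = 0.977) than with the other cKO libraries (mean r = 0.966). Colonocyte markers, led by Krt20, Car4 and Slc26a3, were present in every library and summed to 41616 to 69222 in cKO and 54704 to 73364 in WT. Of these 6 markers, 5 had negative differences, with a median of -0.48 and none past the adjusted threshold. In bulk tissue, fewer cells of a type and less RNA per cell cannot be told apart.

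None of the 10 ligands passed the adjusted threshold of 0.05 in either direction, and neither did any gene tested (0.0% higher and 0.0% lower, with a smallest adjusted p of 0.111). At an unadjusted p under 0.05, Ccl2, Ccl7 and Ccl11 were higher in cKO, against 6.91% of all tested genes, and Ccl20 was lower, against 7.08%. The same 4 ligands were those whose genotypes did not overlap, 3 upward against 10.5% of all genes and 1 downward against 10.9%. The difference was positive for 6 ligands and negative for 4, with a median of 1.06 against 0.0013 over all tested genes. Without Ccl3 and Ccl4, whose place in the test rested on cKO, 4 were positive and 4 negative, with a median of 0.43. With cKO 2 left out, 1 ligand passed the adjusted threshold (Ccl2, higher), against 0.431% of all tested genes. That library was the cKO library most like WT, and with any other single library left out no ligand passed.

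**Figure D1:**
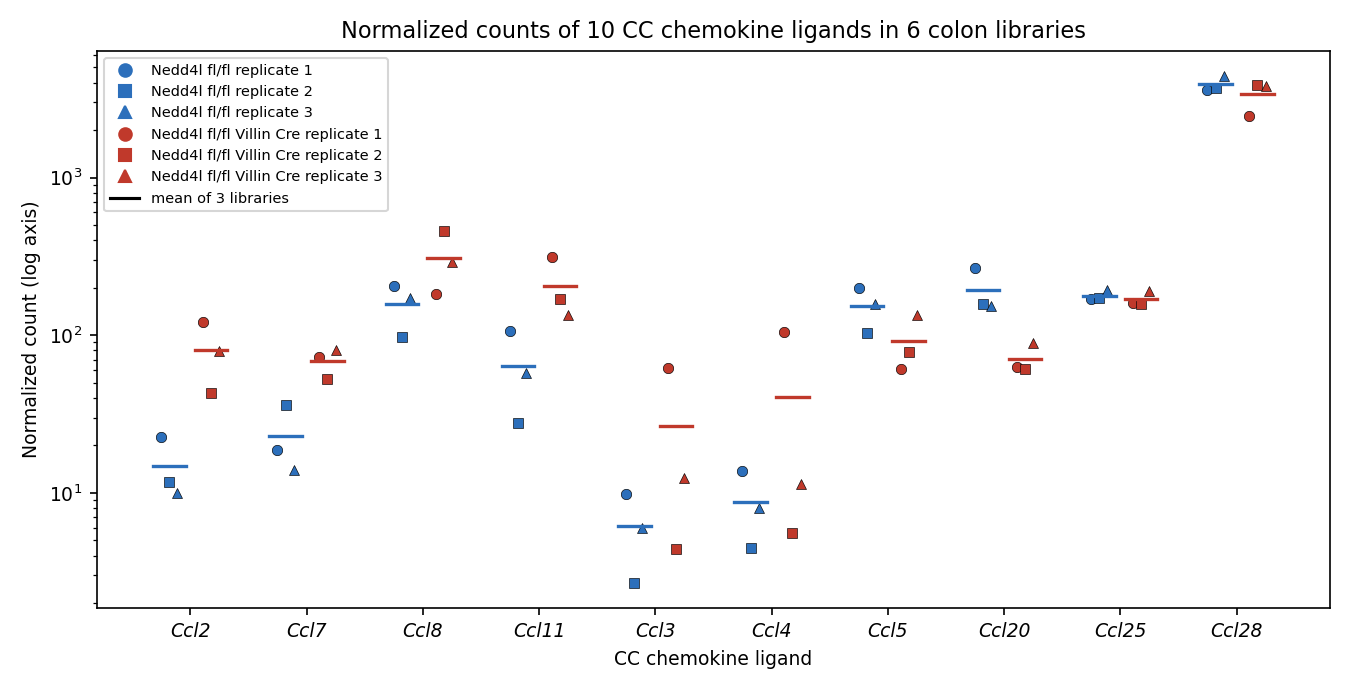
Normalized counts (vertical axis, log scale) of the 10 ligands (horizontal axis) in each of 6 libraries, with bars at the mean of 3 libraries per genotype. All cKO points lie above all WT points for Ccl2, Ccl7 and Ccl11 and below them for Ccl20, whereas the genotypes overlap for the other 6 ligands.

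Ccl2, Ccl7 and Ccl8 encode monocyte chemoattractant proteins, of which Ccl2 and Ccl7 bring Ccr2-bearing monocytes into tissue, and Ccl11 encodes eotaxin, which acts on eosinophils through Ccr3. Their genes stand together on chromosome 11, and all gene positions given here are on GRCm38. The largest difference among the 10 was that of Ccl2, and Ccl8 was the only 1 of these 4 ligands with overlapping genotypes.

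Ccl2 (ENSMUSG00000035385, chr11:82035571-82037453, plus strand) had normalized counts of 120.8, 43.1 and 79.4 in cKO 1, 2 and 3 and of 22.7, 11.7 and 9.99 in WT 1, 2 and 3. Its lowest cKO library thus lay above its highest WT library. The means were 81.1 ± 38.9 and 14.8 ± 6.91 (SD, n = 3 each), and the log2 difference was 2.34 (SE 0.45, adjusted p = 0.169), a fold of 5.07 with a 95% interval of 2.46 to 10.5. Without cKO 2 the difference was 2.73 (adjusted p = 0.0481 by limma). With any other single library left out, the adjusted p by limma was 0.157 to 0.492.

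Ccl7 (ENSMUSG00000035373, chr11:82045712-82047525, plus strand), which also binds Ccr1 and Ccr3, had 72.9, 53.1 and 80.5 normalized counts in cKO 1, 2 and 3 and 18.8, 36.0 and 13.98 in WT 1, 2 and 3. All cKO libraries lay above WT. The log2 difference was 1.63 (SE 0.38, adjusted p = 0.211), a fold of 3.10 with an interval of 1.70 to 5.65. WT 2 was the highest control for Ccl7 and the middle one for Ccl2.

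Ccl11 (ENSMUSG00000020676, chr11:82057823-82062955, plus strand) had 313.4, 170.3 and 134.1 normalized counts in cKO 1, 2 and 3 and 105.7, 27.9 and 57.9 in WT 1, 2 and 3. The gap between the genotypes was narrow, between cKO 3 and WT 1. The means were 206 ± 94.9 and 63.8 ± 39.2 (SD, n = 3 each), and the log2 difference was 1.77 (SE 0.53, adjusted p = 0.281), a fold of 3.42 with an interval of 1.42 to 8.24.

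Ccl8 (ENSMUSG00000009185, chr11:82115185-82116799, plus strand) had 181.2, 455.5 and 292.9 normalized counts in cKO 1, 2 and 3 and 205.4, 97.2 and 171.7 in WT 1, 2 and 3. Here cKO 1 lay below WT 1, and cKO 2 was the highest of all 6 libraries. The log2 difference was 0.93 (SE 0.41, adjusted p = 0.365), and its 95% interval, -0.04 to 1.91, included 0. The library that was highest for Ccl2 and Ccl11, cKO 1, was the lowest cKO library for Ccl8.

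By position, the differences of these genes were measured within 80 kb of the start of Ccl2 (the start of Ccl8 lies 79.6 kb away). Ccl12, a monocyte chemoattractant between Ccl11 and Ccl8 that is not among the 10, had 19.2, 24.3 and 16.5 normalized counts in cKO and 17.8, 8.996 and 12.98 in WT, with a log2 difference of 0.59 (adjusted p = 0.486). All 5 ligand genes tested in this stretch thus had positive values, and the genotypes overlapped for the 2 farthest from Ccl2. Ccl5, Ccl3 and Ccl4 lie 1490, 1612 and 1627 kb from the start of Ccl2, and their differences were of both signs.

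**Figure D2:**
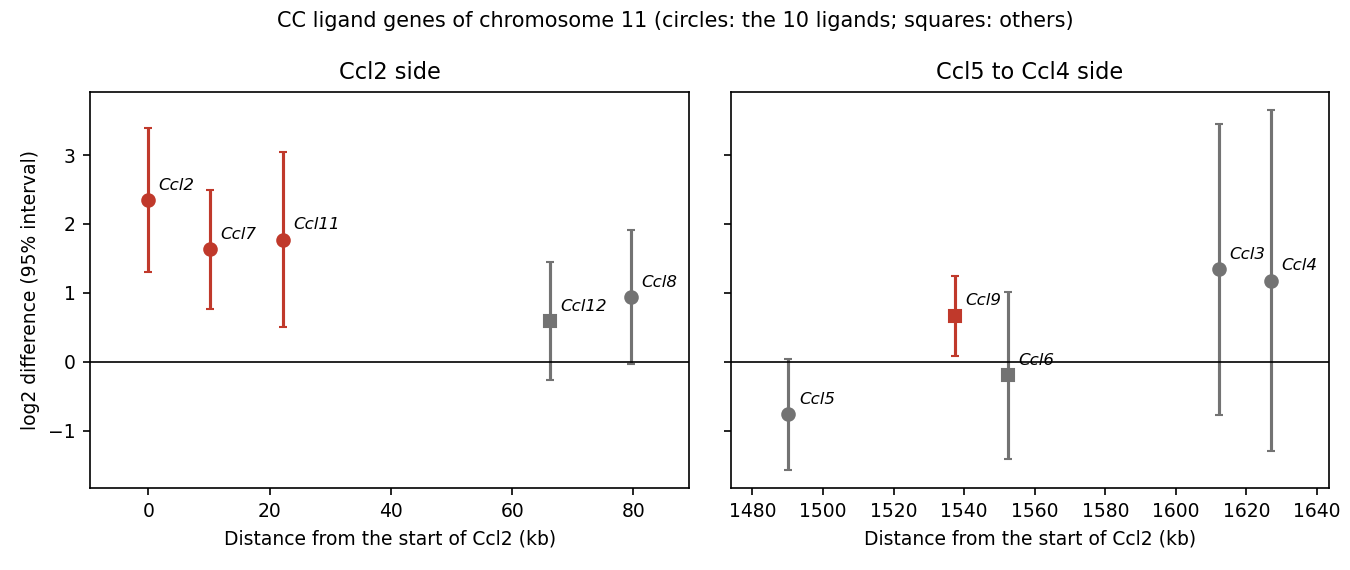
Log2 difference, cKO minus WT, with its 95% interval (vertical axis), of the tested CC ligand genes of chromosome 11 by distance from the start of Ccl2 in kb (horizontal axis), with circles for the 10 ligands described here and squares for others. Red marks genes whose genotypes did not overlap, namely Ccl2, Ccl7, Ccl11 and Ccl9, and grey marks overlap.

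Ccl3, Ccl4 and Ccl5 encode the macrophage inflammatory proteins and RANTES, which act on T cells, NK cells and macrophages, with Ccr1 among the receptors of Ccl3 and Ccl5. None of the 3 separated the genotypes. Ccl3 and Ccl4 were high in 1 library, and Ccl5 leaned the other way.

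Ccl3 (ENSMUSG00000000982, chr11:83647844-83649355, minus strand) had 62.3, 4.42 and 12.4 normalized counts in cKO 1, 2 and 3 and 9.88, 2.70 and 5.99 in WT 1, 2 and 3. Ccl4 (ENSMUSG00000018930, chr11:83662584-83664683, plus strand) had 104.5, 5.53 and 11.3 in cKO and 13.8, 4.50 and 7.99 in WT. For both genes cKO 1 stood far above the rest, and cKO 2 lay within the WT range. The log2 differences were 1.34 (SE 0.90, adjusted p = 0.519) and 1.18 (SE 1.04, adjusted p = 0.622). Without cKO 1 they were 0.38 and -0.0060. The 6 libraries held between 3 and 65 of the smallest steps of value for Ccl3, so its levels are coarse.

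Ccl5 (ENSMUSG00000035042, chr11:83525778-83530518, minus strand) had 61.3, 78.5 and 135.1 normalized counts in cKO 1, 2 and 3 and 199.5, 103.5 and 156.8 in WT 1, 2 and 3. The lowest 2 values were cKO, but cKO 3 lay above WT 2. The log2 difference was -0.76 (SE 0.35, adjusted p = 0.370), with an interval of -1.57 to 0.04. Cytotoxic and NK markers, cells that make Ccl5, summed to 253 to 405 in cKO and 188 to 421 in WT, and T cell markers to 514 to 575 and 454 to 654, so both lists overlapped between genotypes.

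Ccl20, Ccl25 and Ccl28 are the ligands of mucosal epithelium, each with 1 main receptor. Ccl20 draws Ccr6-bearing B cells, dendritic cells and T helper 17 cells, Ccl25 places Ccr9-bearing lymphocytes mainly in the small intestine, and Ccl28 draws IgA plasma cells through Ccr10. Of the 3, only Ccl20 separated the genotypes.

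Ccl20 (ENSMUSG00000026166, chr1:83116766-83119167, plus strand) had 63.3, 60.8 and 88.7 normalized counts in cKO 1, 2 and 3 and 265.7, 158.3 and 153.8 in WT 1, 2 and 3. Every cKO library was below every WT library, and cKO 2 was the lowest of all. The means were 70.9 ± 15.4 and 193 ± 63.3 (SD, n = 3 each), and the log2 difference was -1.40 (SE 0.27, adjusted p = 0.169). This is a level 2.64 times lower, with an interval of 1.72 to 4.05. Epithelial markers, led by Krt8, Krt19 and Epcam, summed to 170503 to 196013 in cKO and to 189812 to 209427 in WT, ranges that overlapped. Of these 7 markers, 6 had negative differences, with a median of -0.073 and none past the adjusted threshold. Markers of M cells and the follicle-associated epithelium, where Ccl20 is typically made, were led by Marcksl1 and Tnfaip2, which other cells also express. The list also holds Ccl9, a CC ligand described below. With Ccl9 included, these markers summed to 1606 to 4229 in cKO and 1253 to 1481 in WT, the reverse order to Ccl20. Gp2, a defining M cell gene, was at 3.83 to 10.3 in cKO and 4.94 to 33.9 in WT.

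Ccl25 (ENSMUSG00000023235, chr8:4325210-4360020, plus strand) had 161.0, 157.0 and 191.9 normalized counts in cKO 1, 2 and 3 and 169.9, 171.8 and 192.7 in WT 1, 2 and 3. The 6 values were close together, with a log2 difference of -0.07 (SE 0.15, adjusted p = 0.854) and an interval of -0.42 to 0.28. The exons of Ccl25 share 204 bases with Elavl1 on the opposite strand, which has a mean normalized count of 1147. Whether the counting used strand is not stated, so part of the Ccl25 value may be Elavl1 reads. Small intestine markers, led by Fabp6, summed to only 78.6 to 237 in cKO and 93.6 to 124 in WT.

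Ccl28 (ENSMUSG00000074715, chr13:119623819-119654359, plus strand) had 2459, 3883 and 3778 normalized counts in cKO 1, 2 and 3 and 3604, 3706 and 4400 in WT 1, 2 and 3. Library cKO 1 was the lowest, and the other 2 cKO libraries lay within the WT range. The log2 difference was -0.23 (SE 0.18, adjusted p = 0.580), with an interval of -0.67 to 0.20. Plasma cell markers, led by Jchain, summed to 39390 to 51550 in cKO and 30940 to 52072 in WT.

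Levels between ligands were compared as normalized counts per kb of exon, where the length joins all annotated exons of a gene. This length was 7445 bases for Ccl25 and 4844 for Ccl28, against coding sequences of 684 and 390 bases. Levels, ranks and shares per kb therefore depend on the length chosen. In WT the order was Ccl28 (806 per kb), Ccl8 (309), Ccl5 (160), Ccl20 (136), Ccl11 (59.0), Ccl7 (28.6), Ccl25 (23.9), Ccl4 (13.3), Ccl2 (13.0) and Ccl3 (8.08). In cKO it was Ccl28 (696), Ccl8 (606), Ccl11 (190), Ccl5 (95.5), Ccl7 (85.9), Ccl2 (71.3), Ccl4 (61.3), Ccl20 (49.9), Ccl3 (34.4) and Ccl25 (22.8). The place of Ccl4 in cKO, above Ccl20, rested on cKO 1, since its libraries had 158, 8.38 and 17.2 per kb. In WT the libraries of neighbours in this order did not overlap between Ccl28 and Ccl8, Ccl20 and Ccl11, or Ccl25 and Ccl4. In cKO they did not overlap only between Ccl8 and Ccl11. All other neighbours overlapped, although within each WT library Ccl8 lay above Ccl5 (402, 190 and 336 against 208, 108 and 163 per kb) and Ccl2 above Ccl3.

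Ccl28 made up 36.1% ± 5.87 of the summed per-kb level of the 10 ligands in cKO and 52.5% ± 8.64 in WT (SD, n = 3 each). All 10 summed to 1719, 2114 and 1910 per kb in cKO and to 1738, 1289 and 1641 in WT, so that cKO 1 lay below WT 1. Without Ccl28, the other 9 summed to 1211, 1313 and 1130 per kb in cKO and to 994, 524 and 733 in WT. The genotypes did not overlap in this sum, unlike in that of all 10. That sum of 9 includes Ccl3 and Ccl4, which passed the filter only through cKO. They had 81.3 and 158 per kb in cKO 1 and 12.9 and 20.9 in WT 1. A sum without them was not taken, so no difference between the genotypes is concluded from the sum of 9. The ratio of Ccl20 to Ccl2 per kb was 0.419, 1.13 and 0.894 in cKO and 9.37, 10.8 and 12.3 in WT. Since both genes separated the genotypes in opposite directions, their ratio had to do so.

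**Figure D3:**
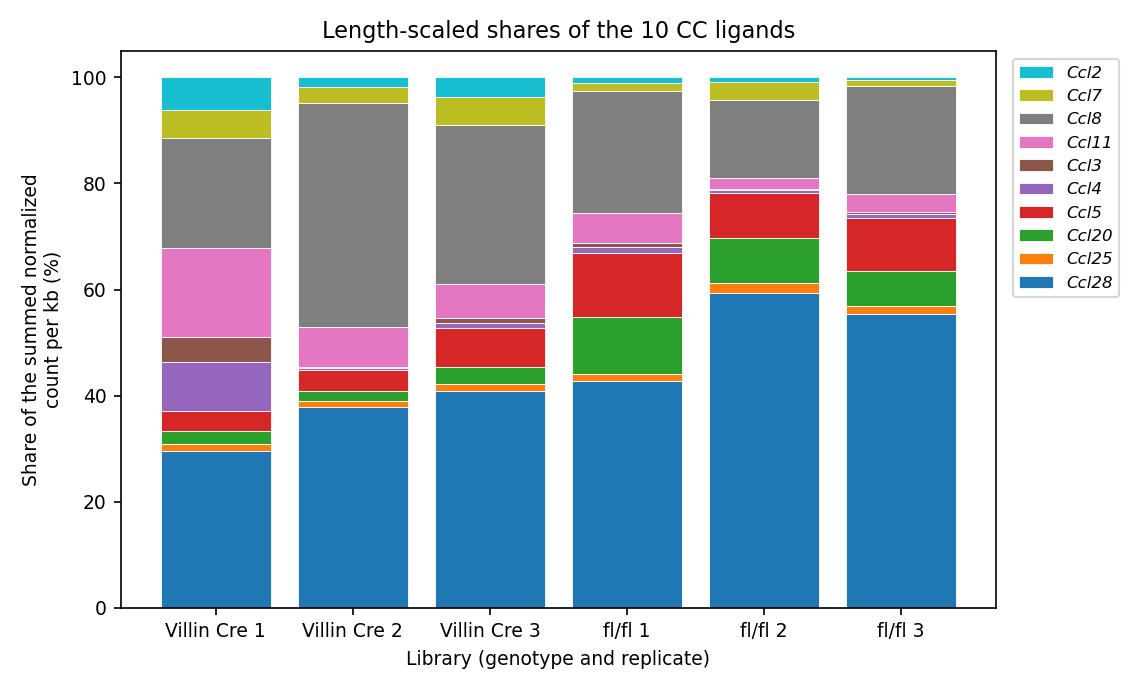
Share in percent (vertical axis) of each of the 10 ligands in their summed normalized count per kb, stacked to 100 in each of 6 libraries (horizontal axis). Ccl28 takes 36.1% on average in cKO and 52.5% in WT, Ccl20 2.63% and 8.66%, and the large Ccl3 and Ccl4 shares are in cKO 1.

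Receptors were taken from a list of 14 CC receptors, of which 11 passed the filter. None passed the adjusted threshold, 2 were higher at an unadjusted p under 0.05 against 6.91% of all tested genes, and 8 of 11 differences were positive, with a median of 0.16. Ccr2, the receptor of Ccl2 and Ccl7 on inflammatory monocytes, had 373.8, 260.9 and 496.1 normalized counts in cKO 1, 2 and 3 and 221.2, 119.7 and 179.7 in WT 1, 2 and 3. The genotypes did not overlap, and the log2 difference was 1.11 (SE 0.30, adjusted p = 0.248). Ccr1, a receptor of Ccl3, Ccl5 and Ccl7, had 314.4, 220.0 and 225.9 in cKO and 210.4, 89.1 and 158.8 in WT, again without overlap (log2 difference 0.79, adjusted p = 0.341).

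The receptor of Ccl20, Ccr6, had 135.2, 86.2 and 93.9 normalized counts in cKO and 65.2, 97.2 and 140.8 in WT, so that the genotypes overlapped fully (log2 difference 0.10, adjusted p = 0.903). Ccr9, the receptor of Ccl25, differed by -0.40 (adjusted p = 0.687) and Ccr10, the receptor of Ccl28, by 0.33 (adjusted p = 0.656) on the same scale. The atypical receptors Ackr1, Ackr2 and Ackr4, which bind CC ligands without G protein signalling, differed by 0.16, 0.11 and -0.23 (adjusted p of 0.861, 0.890 and 0.821). Ccr3, the eotaxin receptor, lay below the filter with 1.0, 2.2 and 1.0 in cKO and 7.9, 0 and 0 in WT. Ccr8, a receptor of mouse Ccl8, also lay below it, with 8.6, 2.2 and 1.0 in cKO and 6.9, 2.7 and 3.0 in WT.

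**Figure D4:**
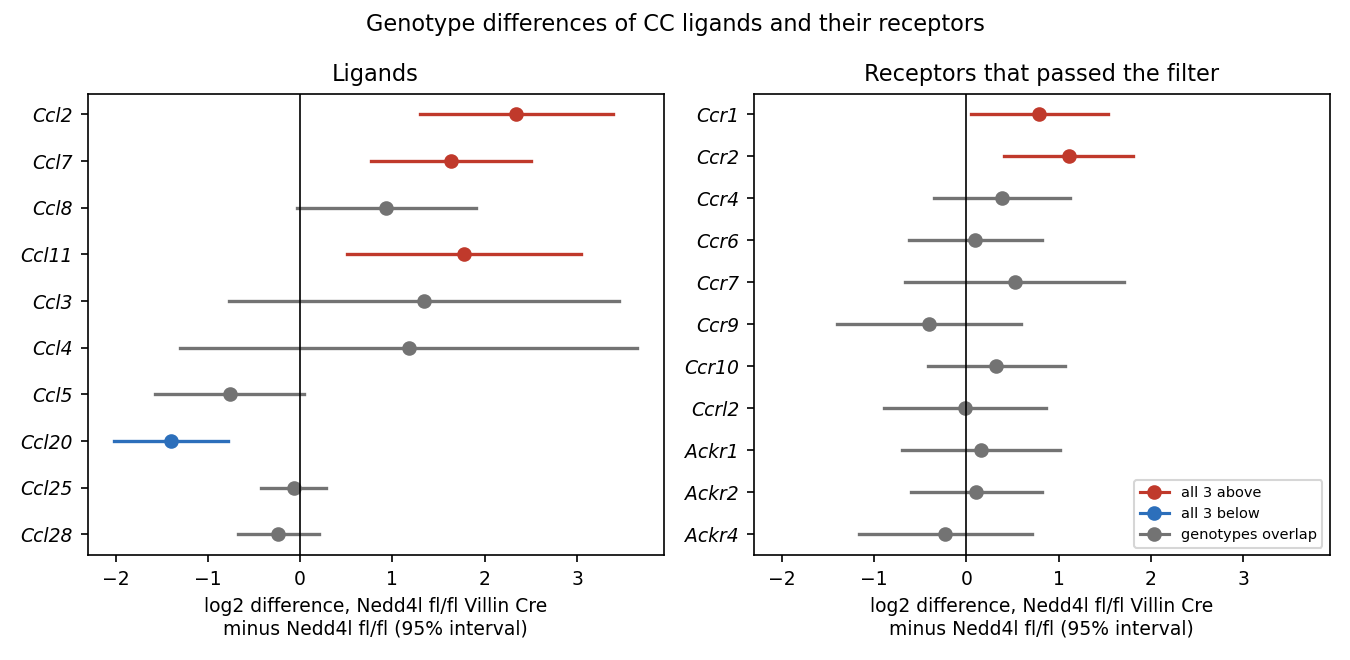
Log2 difference, cKO minus WT, with its 95% interval (horizontal axis), for the 10 ligands (left) and the 11 listed CC receptors that passed the filter (right). Red marks genes with all 3 cKO libraries above WT (Ccl2, Ccl7, Ccl11, Ccr1 and Ccr2), blue marks Ccl20 with all below, and grey marks overlap.

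Of 13 listed cytokines that induce CC ligands, 6 passed the filter, all with positive differences and a median of 0.88. Without Il22, which passed the filter only through cKO, the median was 0.55. None passed the adjusted threshold, and 1, Il1b, was higher at an unadjusted p under 0.05, against 6.91% of all tested genes. Il1b had 993.1, 255.4 and 423.9 normalized counts in cKO 1, 2 and 3 and 112.6, 72.0 and 91.9 in WT 1, 2 and 3. It did not overlap, with a log2 difference of 2.38 (SE 0.50, adjusted p = 0.211). The cKO libraries of Il1b stood in the same order as for Ccl2, but orders of 3 libraries match easily. Il1a differed by 1.21 (adjusted p = 0.460), Il22 by 1.94 (0.507) and Tnf by 0.55 (0.613). These 3 values rested on single libraries, being 0.53 for Il1a and 0.012 for Tnf without cKO 1 and 0.72 for Il22 without WT 1. Tnf, an inducer of Ccl2 and Ccl20, was highest in cKO 1, with 317.3, 79.6 and 132.0 in cKO and 100.7, 90.9 and 114.8 in WT.

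Of 14 other CC ligands on the list, 6 passed the filter, none passed the adjusted threshold and 1, Ccl9, was higher at an unadjusted p under 0.05 (6.91% of all tested genes), with 4 positive and 2 negative differences and a median of 0.16. Ccl9, made by macrophages and the follicle-associated epithelium, had 488.9, 263.1 and 283.7 normalized counts in cKO and 250.8, 187.1 and 191.7 in WT (log2 difference 0.67, adjusted p = 0.317). Ccl27a differed by -0.28 (adjusted p = 0.708) and the tested Ccl21a gene, ENSMUSG00000095320, by 0.31 (adjusted p = 0.873). Reads that match several near-identical copies of Ccl21a may be shared between them or dropped, which was not tested, so its value is uncertain.

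Marker sums of other cell types are given beside the ligands. Monocyte and macrophage markers, led by Lyz2, summed to 9065 to 11493 in cKO and 5179 to 9468 in WT, and these sums overlapped. Of the 11 genes, 10 had positive differences, none past the adjusted threshold. At an unadjusted p under 0.05 by limma, 4 were higher and 0 lower, against 6.91% and 7.08% of all tested genes. For 3 of the 11, all upward, the genotypes did not overlap, against 10.5% of all tested genes. Neutrophil markers summed to 2985 to 9460 in cKO and 2970 to 3232 in WT and overlapped. Most of the WT sums was Ly6g, at 2486, 2832 and 2200 in cKO and 2829, 3136 and 3064 in WT (log2 difference -0.27, adjusted p = 0.329). Ly6g was the only marker of the 6 with a negative difference, and it was set apart after its values were seen. Of the 6 markers, 2 passed the filter only through 1 genotype. At an unadjusted p under 0.05 by limma, 2 of the 6 were higher and 1, Ly6g, was lower, against 6.91% and 7.08% of all tested genes. None passed the adjusted threshold. The 5 markers other than Ly6g summed to 6973, 153 and 1014 in cKO 1, 2 and 3 and to 140, 95.4 and 127 in WT 1, 2 and 3. That order of cKO libraries was also the order of Ccl2, Ccl3, Ccl4 and Il1b. Every other ligand of the 10, with Ccl7, Ccl8 and Ccl11 among them, had a different order. Orders of 3 libraries match easily between unrelated genes, and a link of these ligands to neutrophils was not tested. Fibroblast markers, led by Col1a2 and Col1a1, summed to 11133 to 22688 in cKO and 6007 to 9775 in WT, with 5 of 5 positive. None of these 5 passed the adjusted threshold. At an unadjusted p under 0.05 by limma 2 were higher, against 6.91% of all tested genes, and 2 did not overlap, against 10.5%. Of 4 eosinophil markers 2 were listed, Siglecf and Prg2, and they summed to 57.8 to 85.3 in cKO and 34.9 to 44.1 in WT, while Ccr3 was near 0. Prg2 passed the filter only through cKO, and the log2 difference of Siglecf, the other marker, was 0.34. B cell and follicle markers (1737 to 5631 in cKO and 1091 to 2699 in WT), endothelial markers (1387 to 2587 and 1013 to 1523) and smooth muscle markers (4867 to 9098 and 4107 to 16644) overlapped. Differences were positive for 6 of 6 B cell and follicle markers and 3 of 4 endothelial markers, and negative for 5 of 5 smooth muscle markers. The part of these cells in the ligand differences was not tested.

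**Figure D5:**
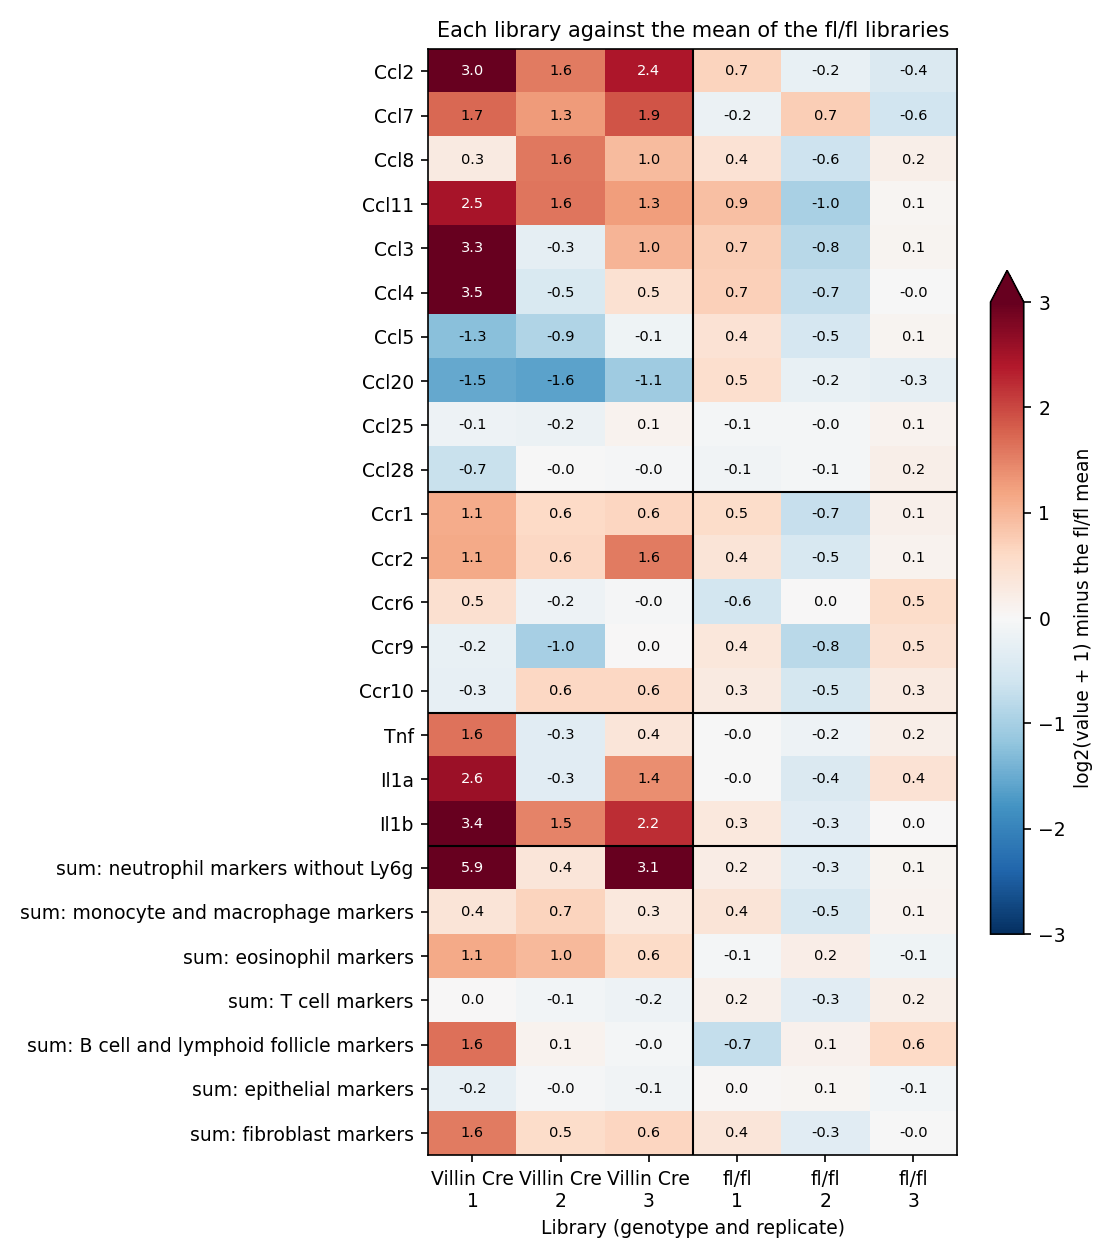
Log2(value + 1) of each library minus the mean of the 3 WT libraries, for the 10 ligands, 5 receptors, 3 cytokines and the summed markers of 7 cell type lists (vertical axis) in the 6 libraries (horizontal axis, Villin Cre for cKO and fl/fl for WT); values past 3 take the darkest colour. Ccl2, Ccl7 and Ccl11 are positive and Ccl20 is negative in all cKO libraries, whereas Ccl3, Ccl4 and the neutrophil markers without Ly6g are highest in cKO 1.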

How the data were processed

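RNA was extracted with TRIzol, and libraries were made with a NEBNext Ultra kit, which does not mark strand unless its directional form is used. The submitters' processing notes list HISAT2 2.0.5 and featureCounts 1.5.0-p3, and a human genome build, whereas all 10 ligands had the coordinates and exon lengths of GENCODE M21 on GRCm38. The authors deposited a signal, namely counts scaled by a library size factor, together with genotype means and their own log2 fold changes, p-values and adjusted p-values, which were not used. Values were tested as log2(value + 1) in limma 3.58.1 (R 4.3.3; lmFit, eBayes with trend and robust), with a mean of at least 10, Benjamini-Hochberg adjustment and a threshold of 0.05. The fit was checked on simulated data. The labels give no batch and do not say that each library is a separate mouse, so p-values measure the spread between libraries. Genes named beyond the 10 ligands and Nedd4l were the receptors of the ligands (Ccr3 and Ccr8 untested) and, for other CC ligands and for cytokines, the 4 with the smallest p. 1 item that the rule would name is not reported here. Marker lists were given as sums, with leading genes, and Gp2 was added after its values were seen. Members and lists were chosen with earlier results of these data known. Alternatives changed the pseudocount, filter, scaling, weights, variance model, libraries and replicate block.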

Additional observations from a re-analysis of the deposited data

How the results depend on the processing

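Ccl2, Ccl7, Ccl11 and Ccl20 kept their direction under every alternative that tested them, with log2 differences of 2.00 to 2.73, 1.35 to 2.00, 1.29 to 2.23 and -1.57 to -1.13 and adjusted p of 0.0164 to 0.492, 0.0212 to 0.511, 0.114 to 0.512 and 0.0383 to 0.487. Weighting libraries by quality (array weights) gave cKO 3 a weight of 4.39 and cKO 1 one of 0.414. It called 3 of the 10 ligands (Ccl2, Ccl7 and Ccl20), 2 of the other CC ligands, receptors and cytokines (Ccr2 and Il1b), 262 genes higher and 369 lower, and Nedd4l at -1.09 (adjusted p = 0.0212). Leaving out single libraries called 0 to 1 of the 10 ligands, 0 to 1 of the other listed genes (Il1b), 0 to 70 genes higher and 0 to 52 lower, the most without cKO 2 (without cKO 1, 2 and 22), and gave Nedd4l differences of -1.28 (without cKO 2, adjusted p = 0.0131) to -0.79. With no filter 7 genes were called higher and 23 lower. A mean of at least 50 left out Ccl2, Ccl3, Ccl4 and Ccl7, so that 2 ligands stayed at an unadjusted p under 0.05 and 2 without overlap.

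Values changed sign with array weights for Ccl25 (0.041), Ccr6 (-0.083), Ackr1 (-0.15) and Ackr2 (-0.043). Leaving out single libraries gave -0.0060 (without cKO 1) to 2.00 for Ccl4, -0.18 to 0.37 for Ccr6, -0.20 to 0.38 for Ackr1, -0.11 to 0.28 for Ackr2, -0.50 to 0.21 for Ackr4, -0.45 to 0.046 for Ccl27a and -0.42 to 0.69 for Ccl21a. The cause was not tested. With the replicate number as a block, 0 ligands were called and 4 were at an unadjusted p under 0.05, but same-numbered libraries did not deviate together (correlations of -0.029, -0.090 and -0.056). Upper-quartile scaling was added after the data were seen and changed no call. The planned count models and TMM scaling were not run. Low counts limit the precision of Ccl3, Ccl4 and the low receptors.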

Other observations

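Ccl24 and Il6 lay below the filter and were chosen, like Prg2 and Ccl6, after their values were seen. Ccl24, an eosinophil chemoattractant, had 1.0, 23.2 and 6.2 normalized counts in cKO 1, 2 and 3 and was listed at 0 in all 3 WT libraries. Il6, an inflammatory cytokine, had 15.3, 9.9 and 20.6 in cKO and 0, 1.8 and 2.0 in WT. The eosinophil granule gene Prg2 had 47.0, 40.9 and 20.6 in cKO and 6.9, 9.9 and 10.98 in WT, with a log2 difference of 1.80 (adjusted p = 0.202 by limma), but it passed the filter only through cKO. The abundant CC ligand Ccl6 had 1086, 3428 and 3495 in cKO and 2967, 2158 and 3075 in WT, and the same library, cKO 1, was the lowest for Ccl6 and for Ccl28.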
